A study of Mus musculus with 840 samples.

Results

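The 10 genes described here encode enzymes and a transporter that protect cells from oxidants: Gpx2, Slc7a11, Nqo1, Gclc, Gclm, Txnrd1, Srxn1, Hmox1, Gpx3 and Mgst1. They were taken by symbol from the 39154 genes of the count tables, and all 10 had a row. The genes were chosen on measured values of these same cells, namely their levels by gate and GFP. Their levels, their detection by gate and their joint detection are therefore given as descriptions, with no test of their own. The question was where each gene was read and whether the genes were high together in a subset of basal and intermediate cells.

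The cells were single mouse mammary epithelial cells, index-sorted and sequenced with Smart-seq2, a full-length method in which each well holds 1 cell. The mice carried SMACreERT2 or K5CreERT2, tamoxifen-inducible Cre drivers specific for basal cells (BCs), together with Rosa-N1ICD-IRES-nGFP, which after recombination gives the active intracellular domain of Notch1 and a nuclear GFP. All mice, including those that gave the GFP- cells, had received tamoxifen at postnatal day 21, so the GFP- cells were unrecombined neighbours in the same glands and not cells of untreated mice. SMACreERT2 plates were taken after chases of 1, 3, 4 or 6 weeks and the 2 K5CreERT2 plates are annotated with 3 weeks, although the sample names of plate L say 6. Live cells lacking CD45, Ter119 and CD31 were sorted by Epcam and CD49f into a basal, an intermediate and a luminal gate, which yielded 6 groups with GFP. After filtering, cells of 8 plates in 3 sequencing batches were kept. Basal GFP+ cells numbered 50, 2, 21, 16, 5 and 6 on plates 1, 2, 3, 4, G and L, intermediate GFP+ cells 4, 3, 13, 19, 60, 63 and 61 on plates 1, 2, 3, 4, E, G and L, and luminal GFP+ cells 120 in all, while 17 basal, 12 intermediate and 39 luminal GFP- cells were kept. A plate served as the replicate, and a group counted on a plate from 3 kept cells. The sample annotation gives each plate 1 or 2 identifying numbers that no other plate shares, which are read here as those of its mice although the annotation does not say so.

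Depth and cell make-up differed between plates. Kept cells had 103081 to 3363298 reads on genes, with a median of 652124, and the batch medians were 402767, 397250 and 1499630. Basal and luminal GFP+ cells had median depths of 496102 and 361346 reads and intermediate GFP+ cells 1391198, most of the latter being in batch 3, the deepest. The lineage markers followed the gate labels in the medians: the basal keratin Krt14 had median levels over plates of 3744 CPM (read counts scaled to the same total in each sum) in basal, 3589 in intermediate and 61.4 in luminal GFP+ cells, and the luminal keratin Krt8 had 249.2, 318 and 2014. On plate L, however, the 6 basal GFP+ cells gave 1.12 CPM of the basal keratin Krt5 against 628 to 1203 on the other 4 plates. Sebaceous gland genes (9, without Mgst1) summed to 8129.5 CPM in those plate L cells, with all 9 detected, to 3138 CPM on plate G and to 163.4, 83.01 and 202.8 CPM on plates 1, 3 and 4. Values of basal GFP+ cells on plates G and L are therefore read beside these markers. Markers of other cell types were high in single groups: salivary gland genes summed to 2729.6 CPM in the luminal GFP+ cells of plate 1, against 1.12 in its basal cells, endothelial genes to 573 and 1097 CPM in the basal and intermediate GFP+ cells of plate 1, and macrophage genes to 406 CPM in the intermediate GFP- cells of plate L. No caller for doublets was run.

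As background, cells keep hydrogen peroxide and lipid peroxides low with the tripeptide glutathione and with the thioredoxin proteins, both of which are recharged by NADPH. Most of these genes are textbook targets of NRF2 (Nfe2l2), a transcription factor that KEAP1 holds at low levels until oxidants or electrophiles modify it, and that binds antioxidant response elements together with small MAF proteins, while BACH1 competes for the same elements. Slc7a11 is in addition a known target of ATF4, the factor of the amino acid and integrated stress response. In stratified epithelia Gpx2 is known as an epithelial, NRF2-responsive glutathione peroxidase, whereas Gpx3 is secreted and Mgst1 is abundant in liver and in sebaceous glands.

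The promoter sequences below are shown because these 4 genes represent the 3 situations found when the letters of both response elements were searched on both strands in RefSeq promoter windows of GRCm38.p6, each 250 bases before to 50 after a start. Of the 10 genes, 8 were in the table, with 11 windows, and Gclc and Hmox1 were not. Only the 250 bases before each start are printed, in the direction of the gene, with matches in capitals, and the windows are chr12:76795555-76795804 on the minus strand for Gpx2, chr3:50443614-50443863 on the minus strand for Slc7a11, chr3:122245307-122245556 on the plus strand for Gclm and chr10:82858956-82859205 on the plus strand for window 2 of Txnrd1.
Gpx2: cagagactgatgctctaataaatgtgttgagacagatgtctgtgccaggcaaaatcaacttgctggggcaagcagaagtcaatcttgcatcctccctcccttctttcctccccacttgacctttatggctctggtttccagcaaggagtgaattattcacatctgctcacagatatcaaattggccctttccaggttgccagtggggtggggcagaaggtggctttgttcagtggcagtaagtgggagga
Slc7a11: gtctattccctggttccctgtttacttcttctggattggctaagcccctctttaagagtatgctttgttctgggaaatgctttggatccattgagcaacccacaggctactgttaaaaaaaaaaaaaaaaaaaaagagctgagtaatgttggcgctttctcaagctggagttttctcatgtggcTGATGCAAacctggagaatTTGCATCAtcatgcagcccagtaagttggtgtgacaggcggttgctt
Gclm: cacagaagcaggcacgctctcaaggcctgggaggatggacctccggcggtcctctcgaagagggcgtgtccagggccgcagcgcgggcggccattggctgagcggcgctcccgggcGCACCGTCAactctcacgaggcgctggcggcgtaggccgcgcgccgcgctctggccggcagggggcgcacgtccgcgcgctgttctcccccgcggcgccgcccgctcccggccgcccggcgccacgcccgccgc
Txnrd1 window 2: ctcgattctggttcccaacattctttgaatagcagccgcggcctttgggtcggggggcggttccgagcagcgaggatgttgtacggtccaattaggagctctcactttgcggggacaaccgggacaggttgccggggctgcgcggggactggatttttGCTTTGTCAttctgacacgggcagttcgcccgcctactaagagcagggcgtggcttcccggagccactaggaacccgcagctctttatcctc

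The antioxidant response element was searched as TGACNNNGC and was held by 4 of the 11 windows (36.4%), against 12.4% of all 32851 promoter windows. The matches lay before the start of Gclm, 92 bases before that of Txnrd1 window 2, 56 before that of Mgst1 and 28 after that of Srxn1, each on the strand opposite to the gene. The amino acid response element was searched as TGATGCAA and occurred at 66 and at 47 bases before the start of Slc7a11, once on each strand, whereas 0.895% of all windows held it. No match of one motif overlapped a match of the other in these windows. Neither motif occurred in the window of Gpx2, which says only that these letters are absent there. A match describes the sequence and is not a binding site.

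Levels are given in CPM of the reads summed over the kept cells of a group on a plate. In such sums fewer expressing cells and less RNA per cell cannot be told apart, so the share of cells with a read is given beside them, after each cell had been thinned to 100000 reads. Between genes, only levels per length (RPKM, CPM per kilobase of exon) can be compared. In basal GFP+ cells the mean RPKM over 5 plates was highest for Hmox1 (650), followed by Mgst1 (223.2), Srxn1 (72.9), Txnrd1 (66.3), Gpx3 (21.2), Gclc (15.8), Gpx2 (15.7), Gclm (10.0), Nqo1 (4.97) and Slc7a11 (3.69). Every neighbouring pair in this order overlapped between plates. The place of Gpx3 rested on plate 1, since its median RPKM was 0.17, the lowest of the 10, and by medians Txnrd1 (54.1) stood above Srxn1 (47.9). The length used was that of all annotated exons of a gene joined. It was 3222 bases for Gpx2, which is the whole span of the gene, and 13922 for Slc7a11. By this length Gpx2 and Slc7a11, which name the set, were among its lower members. Levels per length of single transcripts were not computed, so this order depends on the choice of length.

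**Figure D1:**
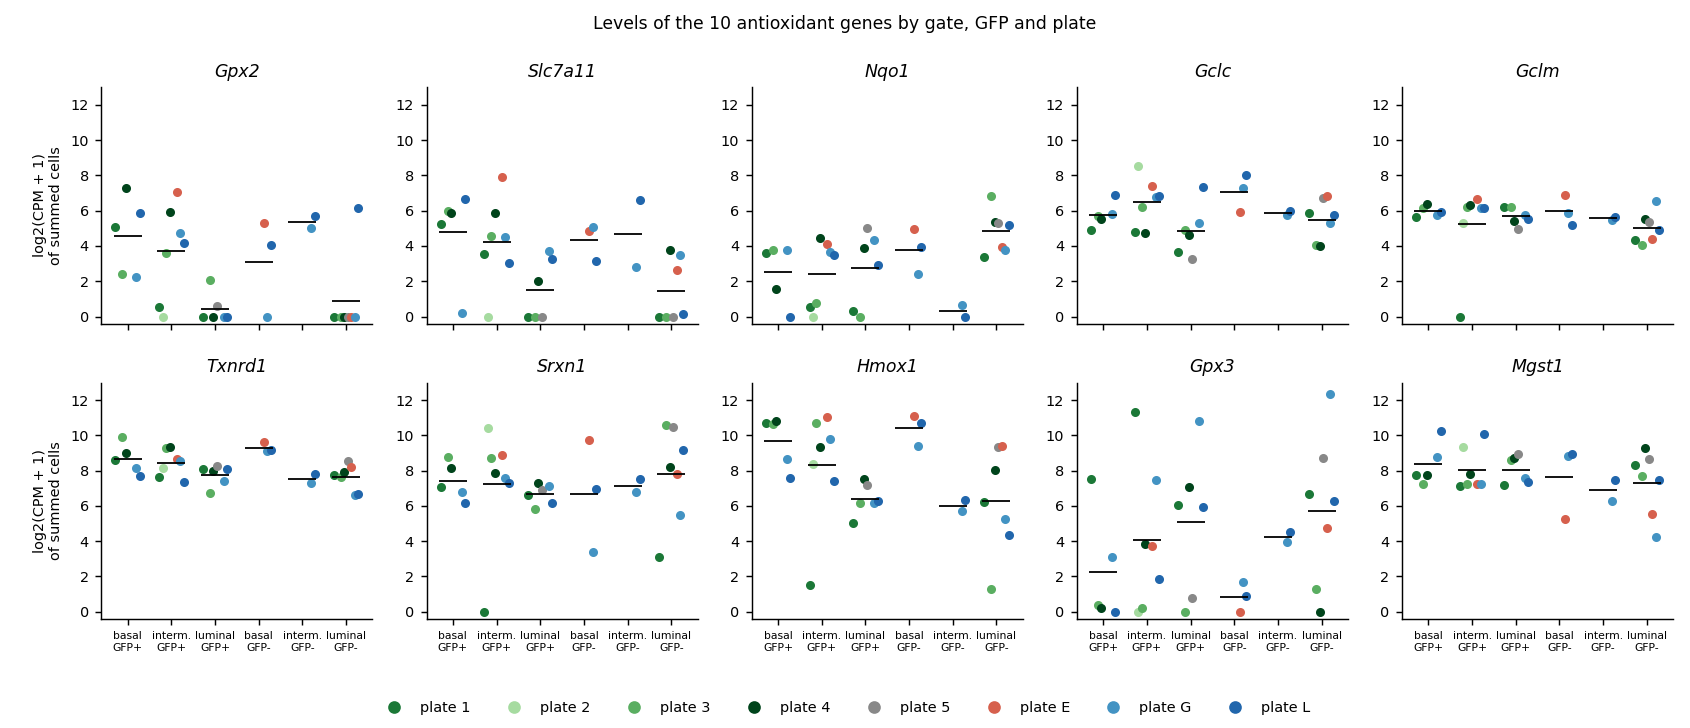
Levels of the 10 genes as log2(CPM + 1) of the summed cells (vertical axis), by gate and GFP (horizontal axis); each point is a plate with at least 3 kept cells of that group and each bar the mean of the points. Gpx2 lay between 3.81 and 154.1 CPM in basal GFP+ cells and at 0 to 3.28 CPM in luminal GFP+ cells, whereas the values of Gclm overlapped between all groups.

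Cystine import and glutathione synthesis were represented by Slc7a11, Gclc and Gclm. Slc7a11 (chr3:49892526-50443614, minus strand, GRCm38) encodes xCT, the cystine-glutamate antiporter that supplies cysteine for glutathione. In basal GFP+ cells it had 37.4, 61.5, 56.9, 0.147 and 100.8 CPM on plates 1, 3, 4, G and L. In intermediate GFP+ cells it ranged from 0 CPM on plate 2 through a median of 21.7 to 240.4 on plate E. In luminal GFP+ cells it was at 0 on 3 of 6 plates, with a median of 1.55 and a maximum of 12.4 CPM on plate G. Slc7a11 was thus lower in luminal than in basal GFP+ cells on 4 of the 5 plates holding both, the exception being plate G, where only 0.147 CPM were read in its 5 basal cells. On plates 1, 3 and 4 it had 37.4 to 61.5 CPM in basal and 0 to 3.10 CPM in luminal GFP+ cells. On plates G and L only, the fitted log2 fold change of luminal against basal cells was 0.78 (edgeR). The plates were set apart after seeing the data, and how many of all genes would be separated in this way was not counted. Reads of Slc7a11 were found in 16% of basal (95% exact binomial interval 9.43 to 24.7), 26.01% of intermediate (20.4 to 32.3) and 3.33% of luminal GFP+ cells (0.916 to 8.32), and with all reads in 23%, 31.8% and 4.17%. These intervals cover counting error only. In luminal GFP- cells reads of Slc7a11 were found in 5 of 39 cells (12.8%). The part of free RNA and of misplaced cells in any of these shares was not tested.

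Gclc and Gclm encode the catalytic and the modifier subunit of glutamate-cysteine ligase, the rate-limiting enzyme of glutathione synthesis. Gclc had 29.1, 50.9, 44.7, 55.5 and 118.001 CPM in basal GFP+ cells (plates 1, 3, 4, G and L), a range of 26.02 to 369.6 with a median of 107.6 in intermediate GFP+ cells, and 8.44 to 160.9 with a median of 26.2 in luminal GFP+ cells. The groups overlapped, and Gclc was lower in luminal than in basal cells on 4 of 5 plates. Gclm was nearly even, with 49.04, 70.03, 83.4, 53.5 and 58.9 CPM in basal GFP+ cells, a median of 71.5 (0 to 98.7) in intermediate and of 48.9 (30.05 to 71.9) in luminal GFP+ cells. Exons of Gclm overlap those of the non-coding Gm17494 on the other strand and of the pseudogene Gm6061, and the strand setting of the counting is not given in the sources used here, so its level is uncertain. Gclc was detected in 40%, 68.2% and 27.5% of basal, intermediate and luminal GFP+ cells and Gclm in 64%, 79.4% and 47.5%.

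Gpx2 (chr12:76792333-76795554, minus strand) encodes a cytosolic glutathione peroxidase of epithelia. It had 33.1, 4.33, 154.1, 3.81 and 57.3 CPM in basal GFP+ cells on plates 1, 3, 4, G and L, 50.5 ± 62.03 in the mean (SD, n = 5 plates). In intermediate GFP+ cells it ranged from 0 on plate 2 through a median of 17.1 to 134.9 on plate E, and in luminal GFP+ cells it had no read on 4 of 6 plates, 0.491 CPM on plate 5 and 3.28 on plate 3. Gpx2 was lower in luminal than in basal cells on all 5 plates and the groups did not overlap, although the lowest basal value (3.81 CPM) lay close to the highest luminal value (3.28 CPM). Gpx2 was chosen on its levels by gate, and how many of all genes separate in this way was not counted. The luminal zeros were bounded by depth: on plate 4, with 51 luminal GFP+ cells, 3 reads of the total would be 0.163 CPM, and on plate 1, with 8 cells, 0.682 CPM. Reads of Gpx2 were found in 16% of basal (9.43 to 24.7), 31.4% of intermediate (25.4 to 37.9) and 2.50% of luminal GFP+ cells (0.519 to 7.13). Across all 6 groups the mean levels were ordered as basal GFP+ (50.5 CPM), intermediate GFP- (40.7), intermediate GFP+ (35.5), basal GFP- (18.1), luminal GFP- (9.86) and luminal GFP+ (0.629). All neighbours in this order overlapped between plates, and the level of intermediate GFP- cells came from 2 of 12 cells (16.7%). The pseudogene Gpx2-ps1 has a row of its own, so reads shared by both could be divided between them.

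Gpx3 and Mgst1 behaved differently from Gpx2. Gpx3, the secreted plasma glutathione peroxidase, had 184.1, 0.309, 0.152, 7.47 and 0 CPM in basal GFP+ cells on plates 1, 3, 4, G and L. In intermediate GFP+ cells it had a median of 12.3 and reached 2616 CPM in the 4 cells of plate 1, and in luminal GFP+ cells it had a median of 63.2 and reached 1794 CPM in the 6 cells of plate G. It was found in only 4%, 10.3% and 12.5% of basal, intermediate and luminal GFP+ cells, and 2 of the 323 basal and intermediate GFP+ cells held 50% of its summed CPM. Markers of other cells stood beside the high values: genes of hormone receptor-positive luminal cells summed to 3652 CPM in the plate 1 intermediate cells, where endothelial genes also reached 1097, to 2167 CPM in the plate G luminal GFP+ cells and to 9116 CPM in the plate G luminal GFP- cells, where Gpx3 had 5141 CPM. Over the 323 cells Gpx3 went with the endothelial genes at a Spearman's rho of 0.32 with ranks within plate and gate. The part of these cells in the level of Gpx3 was not tested. Mgst1, a membrane-bound glutathione transferase and peroxidase, was found in 92%, 93.7% and 95% of cells and had 215.8, 148.7, 218.7, 445 and 1218 CPM in basal GFP+ cells. Its levels on plates G and L stood beside the sebaceous genes given above. In intermediate GFP+ cells it had 139.3 to 222.7 CPM on plates 1, 3, 4, E and G, 642 in the 3 cells of plate 2 and 1096 on plate L, where sebaceous genes summed to 105.9 to 865, 2804 and 5477 CPM. Their part in the level of Mgst1 was not tested.

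The thioredoxin arm comprised Txnrd1, the cytosolic thioredoxin reductase, and Srxn1, sulfiredoxin, which repairs overoxidised peroxiredoxins. Txnrd1 had 384, 951, 523, 285.5 and 206.6 CPM in basal GFP+ cells on plates 1, 3, 4, G and L, a median of 379.7 (160.97 to 640.0) in intermediate and of 261.9 (106.1 to 312.05) in luminal GFP+ cells. It was read in 92%, 91.5% and 78.3% of basal, intermediate and luminal GFP+ cells. Srxn1 had 135.04, 431, 279.1, 111.5 and 71.6 CPM in basal GFP+ cells, a median of 237.6 (0 to 1355) in intermediate and of 109.3 (55.2 to 159.5) in luminal GFP+ cells. Both ranges overlapped between gates. Srxn1 was found in 51%, 69.1% and 45.8% of cells.

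Nqo1 and Hmox1 encode enzymes that reduce quinones and that degrade heme to biliverdin, iron and carbon monoxide. Hmox1 (chr8:75093621-75100589, plus strand) had 1645, 1615, 1837, 400.7 and 190.3 CPM in basal GFP+ cells on plates 1, 3, 4, G and L, 1138 ± 777 in the mean (SD, n = 5). In intermediate GFP+ cells it had a median of 656, from 1.83 CPM in the 4 cells of plate 1 to 2114 on plate E, and in luminal GFP+ cells a median of 74.1, from 32.1 to 181.1. Hmox1 was lower in luminal than in basal cells on 5 of 5 plates without overlap, with 190.3 CPM as the lowest basal and 181.1 as the highest luminal value. This gene too was chosen on its levels by gate, and the share of all genes separated in this way was not counted. Hmox1 was found in 78%, 75.3% and 38.3% of basal, intermediate and luminal GFP+ cells. Nqo1 showed no such pattern: it had 11.1, 12.9, 1.98, 12.6 and 0 CPM in basal, a median of 10.2 (0 to 21.01) in intermediate and a median of 10.2 (0 to 31.7) in luminal GFP+ cells, and was found in 17%, 22.4% and 21.7% of them.

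The plates where the genes were highest differed from gene to gene. Among intermediate GFP+ cells plate E, with 60 cells of SMACreERT2 mice after 3 weeks and in the deepest batch, was highest for Gpx2 (134.9 CPM), Slc7a11 (240.4), Gclm (98.7) and Hmox1 (2114). Plate 2, with 3 kept cells, was highest for Gclc (369.6) and Srxn1 (1355), plate 4 for Nqo1 (21.01) and Txnrd1 (640.0), plate 1 for Gpx3 (2616) and plate L for Mgst1 (1096). Gpx2 and Slc7a11 were each found in 58.3% of the plate E cells, against 0% to 31.7% and 0% to 25% of the intermediate GFP+ cells on the other plates. Plate E was also the only plate of SMACreERT2 cells in batch 3, so its mice cannot be told apart from that combination of Cre line and batch. Summed immediate early and heat shock genes were lowest on plate E among the intermediate GFP+ plates, at 4472 CPM with 19533 as the highest.

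The gates were compared in GFP+ cells with the quasi-likelihood test of edgeR on summed reads, with the plate as a block, over all genes that passed its filter on low counts. Between luminal and basal cells, on 5 plates, 68 of 12091 genes (0.562%) had a Benjamini-Hochberg adjusted p below 0.05, 26 higher and 42 lower in luminal cells, and none of the 10 antioxidant genes was among them. All 10 had passed the filter. The fitted log2 fold changes of luminal against basal cells were -9.36 ± 2.49 (SE) for Gpx2, -4.81 ± 2.31 for Slc7a11 and -3.59 ± 0.68 for Hmox1, and 6.00 ± 2.74 for Gpx3. The other 6 genes lay between -1.07 ± 0.52 (Txnrd1) and -0.06 ± 3.24 (Nqo1). Fold changes of genes near 0 reads depend on the prior count of the fit. Before adjustment, 1390 genes had p below 0.05, Gpx2 and Hmox1 among them.

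The count of called genes depended on single plates and on the tool. Without plate 1, 3, 4, G or L in turn, 11, 5, 11, 22 and 44 genes were called. DESeq2 called 1595 of 15169 genes (10.5%), of which 4 were antioxidant genes, with Gpx2, Slc7a11 and Hmox1 lower and Gpx3 higher in luminal cells, and edgeR with no filter on low counts called 906 of 29437 genes (3.08%) and the same 4. Since the 10 genes were selected on this contrast, nothing is read from these counts beside the background.

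**Figure D2:**
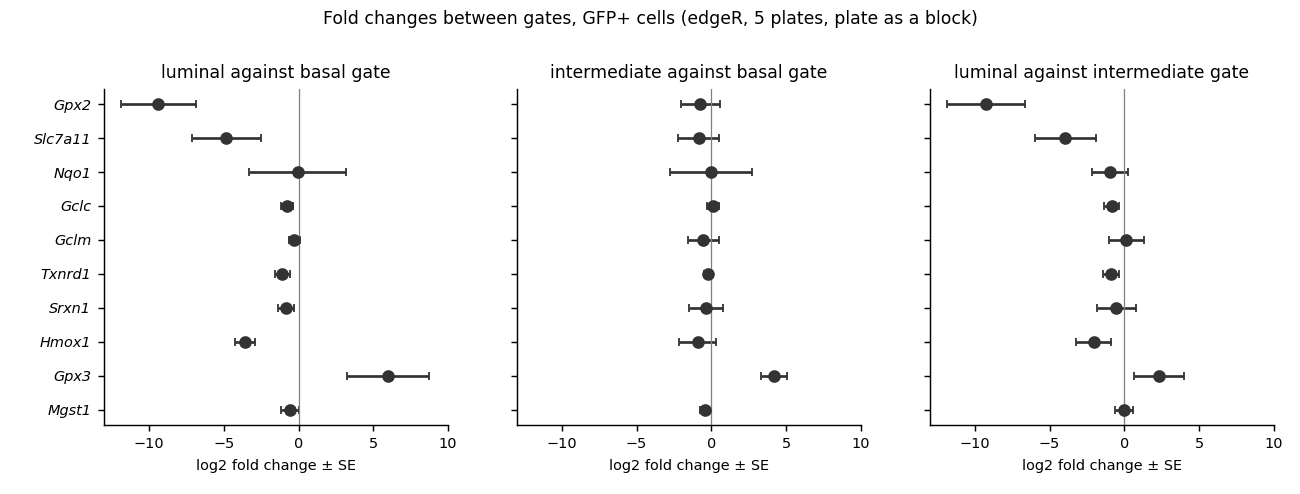
Log2 fold changes (horizontal axis, points) with their standard errors (bars) of the 10 genes (vertical axis) in 3 comparisons between gates of GFP+ cells, from edgeR with 5 plates as blocks. Gpx2 had -9.36 and -9.25 in both comparisons with luminal cells as the first gate, whereas intermediate and basal cells differed by -0.75 ± 1.29.

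Between intermediate and basal GFP+ cells, on the same 5 plates and therefore without plate E, 0 of 12348 genes (0%) were called by edgeR, 1.48% had an unadjusted p below 0.05, DESeq2 called 99 of 15191 (0.652%) and edgeR with no filter on low counts 25 of 33230 (0.0752%). Of the antioxidant genes, Gpx3 was called by both alternatives, at 4.20 ± 0.87 in the filtered edgeR fit, with the high value and the endothelial and luminal genes of the 4 intermediate cells of plate 1 given above beside it. The other 9 genes had fitted log2 fold changes from -0.93 ± 1.23 (Hmox1) to 0.11 ± 0.43 (Gclc). Between luminal and intermediate cells 0 of 11979 genes (0%) were called by edgeR and 822 had an unadjusted p below 0.05. DESeq2 called 899 of 15731 (5.71%), Gpx2 and Slc7a11 among them, and edgeR with no filter on low counts 335 of 33011 (1.01%), with Gpx2, Hmox1 and Gpx3. Gpx2 (-9.25 ± 2.62) was lower in luminal cells on 5 of 5 plates, and Slc7a11 (-3.96 ± 2.04), Hmox1 (-2.06 ± 1.17), Nqo1, Gclc, Gclm and Srxn1 on 4 of 5, although the fitted value of Gclm was 0.11 ± 1.17. Mgst1 was higher in luminal cells on 4 of 5 plates, with a fitted value of -0.01 ± 0.60. The 3 comparisons share plates and cells, so their values are not separate evidence.

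Luminal GFP+ cells were next set beside the luminal GFP- cells of the same plates, to ask whether cells that had come to the luminal gate differed from unrecombined luminal cells (LCs). On 6 plates 0 of 10929 genes (0%) were called by edgeR, 436 had an unadjusted p below 0.05, and DESeq2 called 2.38% of 12838 and edgeR with no filter on low counts 79 of 28084 (0.281%), with no antioxidant gene among them. Gpx2 and Slc7a11 did not pass the filter on low counts. The largest fitted differences were -2.40 ± 1.44 for Nqo1 and -1.54 ± 1.28 for Srxn1, which were lower in GFP+ cells on 5 and 4 of 6 plates, and the other 6 genes lay between -1.15 ± 1.63 (Gpx3, also lower on 5 of 6 plates) and 0.49 ± 0.60 (Gclm). Nqo1 had a median of 35.4 CPM in luminal GFP- cells, from 9.37 to 114.5, beside 10.2 in luminal GFP+ cells. Reads of Gpx2 in luminal GFP- cells came from 1 of 39 cells (2.56%), a plate L cell that brought its group of 6 cells to 69.003 CPM while the other 6 plates had 0. The same group had the highest Krt5 (442 CPM) and Krt14 (803 CPM) of the luminal GFP- plates.

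Basal and intermediate GFP- cells were kept on only 3 and 2 plates, and their levels are given without a test. In basal GFP- cells (plates E, G and L) Gpx2 had 38.8, 0 and 15.5 CPM, Slc7a11 27.5, 33.1 and 7.71, Hmox1 2227, 689 and 1694, and Txnrd1 793, 558 and 584. On plates G and L, which held both groups, Hmox1, Txnrd1 and Gclc were lower in basal GFP+ than in basal GFP- cells on both plates, with means of 295.5 against 1192 CPM for Hmox1, 246.1 against 571 for Txnrd1 and 86.8 against 208.1 for Gclc. Gpx2 went the other way and was higher in basal GFP+ cells on both plates, with means of 30.6 against 7.77 CPM. These are the 2 plates on which basal GFP+ cells carried sebaceous genes. In the basal GFP- cells of plates G and L those genes summed to 2577 and 2877 CPM. In intermediate GFP- cells (plates G and L) Gpx2 had 30.9 and 50.4 CPM and was lower in the intermediate GFP+ cells of both plates (means of 21.3 against 40.7 CPM). Its reads came from only 2 of the 12 intermediate GFP- cells (16.7%), whereas 31.4% of the intermediate GFP+ cells of all plates had them. Slc7a11 had 5.87 and 97.4 CPM in the intermediate GFP- cells. Hmox1 had 50.7 and 80.1 CPM there, beside 883 and 168.7 in intermediate GFP+ cells of the same plates. Reads of Gpx2 and Slc7a11 were thus present in the basal and intermediate gates without GFP.

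Further genes of the same pathways were then examined, from lists that were also put together with earlier results in view. Among 10 regulators of NRF2, 0 passed the edgeR test between luminal and basal cells and their median log2 fold change was 0.03, beside -0.04 over all tested genes. Nfe2l2 itself had -1.08 ± 0.51 (adjusted p = 0.486, edgeR), its competitor Bach1 -1.16 ± 0.58 and the small MAF gene Maff -0.93 ± 0.33. Of 22 other NRF2 targets, 21 were tested, 0 passed, 13 had negative values and the median was -0.30. The carbonyl reductase gene Cbr3 had -3.97 ± 2.31, the oxidative stress gene Osgin1 -1.53 ± 0.43 (adjusted p = 0.185, edgeR) and Gsr, glutathione reductase, 1.90 ± 1.32, so NRF2 targets outside the 10 genes lay on both sides of 0.

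Of 25 other antioxidant enzymes, 23 were tested, 0 passed and the median was -0.21, with the glutaredoxin gene Glrx at -3.10 ± 0.76 (adjusted p = 0.14, edgeR) and the peroxidase gene Gpx7 at -3.70 ± 1.76. Among 14 tested genes of the ATF4 response, to which Slc7a11 also belongs, 0 passed, 10 had negative values and the median was -0.55. Phgdh, the enzyme that opens serine synthesis, had -4.34 ± 1.60 and Pck2 1.52 ± 0.64. Of 12 immediate early and heat shock genes, which respond to tissue dissociation, 0 passed, 10 had negative values, the median was -0.44 and Dnajb1 had -2.02 ± 0.55. The 9 tested genes of lipid synthesis had a median of -0.18, with 0 passing. DESeq2 called Cbr3, Osgin1, Glrx, Gpx7, Sod2, Phgdh, Dnajb1 and Hspa1a lower among these lists, 8 of the 92 genes it tested there (8.70%), a share near the 10.5% it called over all genes. In the other 3 comparisons edgeR called none of the genes in these 6 lists. Their medians ran from -0.60 (ATF4 response) to -0.01 between intermediate and basal cells, beside -0.06 over all genes, from -0.44 (other NRF2 targets) to 0.04 between luminal and intermediate cells, beside 0.07, and from -0.73 (immediate early and heat shock genes, 12 of 12 negative) to 0.47 (ATF4 response) between luminal GFP+ and GFP- cells, beside 0.27.

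The same test called some lineage markers of the gates, which were themselves set by the sort on Epcam and CD49f. Over all genes it called 0.562% between luminal and basal GFP+ cells. Between luminal and basal GFP+ cells, 4 of 10 basal markers (Krt14, Acta2, Cnn1 and Tagln) were lower, and 3 of 9 tested luminal (Krt8, Krt18 and Epcam) and 4 of 10 markers of hormone receptor-negative (HRneg) LCs (Kit, Elf5, Aldh1a3 and Ltf) were higher. None of 7 hormone receptor-positive (HRpos) luminal, 6 sebaceous, 3 interfollicular epidermis and 1 macrophage genes tested passed, 1 of 6 hair follicle genes (Lgr5) was lower, the only salivary gene tested (Aqp5) was higher, and no fibroblast or endothelial gene was tested.

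To see whether the genes were read together, their detection was counted in each of the 323 basal and intermediate GFP+ cells after thinning to 100000 reads. At least 5 of the 10 genes were detected in 70.6% of the cells (95% exact binomial interval 65.3 to 75.5), at least 8 in 35 cells and all 10 in 2. The cells formed 1 continuous range around 5 and 6 genes, with 5 cells at 1 gene and 75, 64 and 54 cells at 5, 6 and 7. The share with at least 5 genes was 56% in basal, 77.1% in intermediate and 28.3% in luminal GFP+ cells. These shares pool plates that differ between gates, and plate E held intermediate but no basal GFP+ cells. Basal cells lay above intermediate cells on plates 1, 3 and L and below them on plates 4 and G. On plates 1, 3, 4, G and L the share was 48%, 71.4%, 43.8%, 60% and 83.3% in basal cells. In intermediate cells of these plates the share was 0%, 53.8%, 73.7%, 85.7% and 63.9%. In GFP- cells it was 58.97% in luminal, 64.7% in basal and 83.3% in intermediate cells (39, 17 and 12 cells). The GFP- cells of the basal and intermediate gates were from batch 3 only, so their shares are compared within plates. On plates G and L, basal cells had 60% and 83.3% with GFP against 50% and 40% without. Intermediate cells had 85.7% and 63.9% with GFP against 83.3% on both plates without. Apart from the intermediate GFP+ cells, these groups had 5 or 6 cells each. Txnrd1, Mgst1, Hmox1 and Gclm, which were each found in most cells, made up much of these counts.

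Plate by plate, the share of basal and intermediate GFP+ cells with at least 5 genes was 44.4% on plate 1, 64.7% on plate 3, 60% on plate 4, 91.7% on plate E, 83.8% on plate G and 65.7% on plate L, and all 5 cells of plate 2. Without plate E it was 65.8%. At least 8 genes were found in 26 of the 60 plate E cells (43.3%), against 1.85%, 0%, 5.71%, 4.41% and 4.48% of cells on plates 1, 3, 4, G and L, and both GFP+ cells with all 10 genes were on plate E. GFP- cells were also rich in these genes: on plate E all 6 basal GFP- cells had at least 5, with a median of 7 and up to 9, as did 80% of the 5 luminal GFP- cells, with a median of 6, and a basal GFP- cell of plate L had all 10. Counts of at least 5 were not particular to the basal and intermediate gates in batch 3, since 66.7% and 80% of the luminal GFP+ cells on plates G and L (6 and 5 cells) also reached them. At least 8 genes were found in 0% and 20% of these luminal cells. At the same number of reads, the number of antioxidant genes went with the number of all genes detected in a cell (Spearman's rho 0.45 within plate and gate, n = 323 cells that share libraries and sequencing runs).

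**Figure D3:**
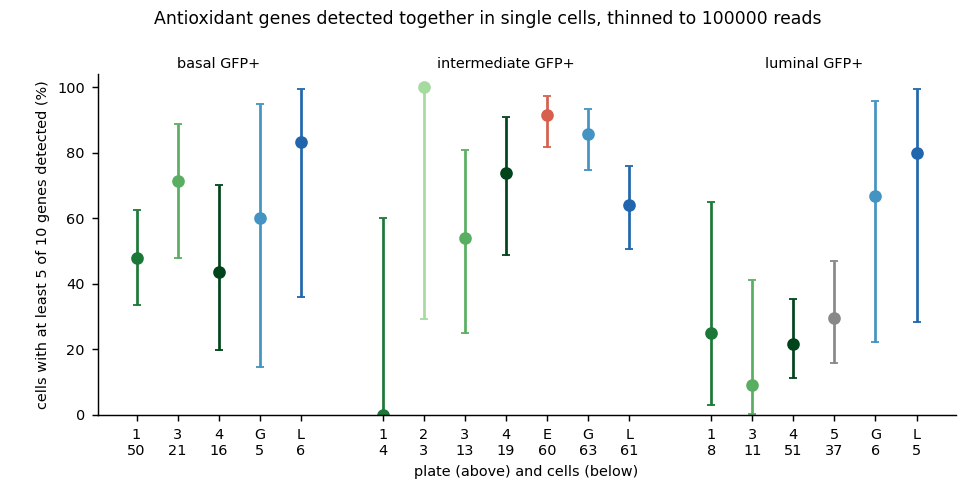
Share of GFP+ cells in which at least 5 of the 10 genes were detected (vertical axis, percent) by gate and plate (horizontal axis, with the number of cells), at 100000 reads per cell; bars are 95% exact binomial intervals. Plate E (91.7% of 60 intermediate cells) had the highest share of the plates with more than 6 cells of a gate.

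Gpx2 and Slc7a11 themselves were found together in 38 of the 323 cells, 28 of them on plate E. Slc7a11 was found in 44.2% of the 86 cells with Gpx2 (33.5 to 55.3) and in 15.2% of the cells without it (10.9 to 20.4). The difference lay mostly on plate E, where Slc7a11 was found in 28 of 35 cells with Gpx2 (80%, 63.1 to 91.6) and in 7 of 25 without (28%, 12.1 to 49.4). On the other plates it was found in 10 of 51 cells with Gpx2 (19.6%, 9.82 to 33.1) and in 29 of the cells without (13.7%, 9.36 to 19.1), intervals that overlap. Of the 38 cells with both genes, 37 also had reads of Txnrd1 and Hmox1, genes that were read in most cells anyway.

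On plate E the other genes were also found more often in the cells with Gpx2, at 94.3% against 64% for Gclc, 42.9% against 24% for Nqo1, 88.6% against 76% for Gclm, 85.7% against 76% for Srxn1 and 100% against 88% for Hmox1. Gpx3 was the exception, with 5.71% against 12%. On the other plates the same differences were smaller for Gclc (60.8% against 52.8%) and Nqo1 (23.5% against 16.04%) and larger for Srxn1 (72.5% against 56.1%). Cells with Gpx2 held more genes altogether: a median of 7914 against 5966 on plate E, at 1497829 and 1413375 reads, and 7304 against 6130 on the other plates, at 1131755 and 648916 reads. The part of this richness in the joint detection was not tested.

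**Figure D4:**
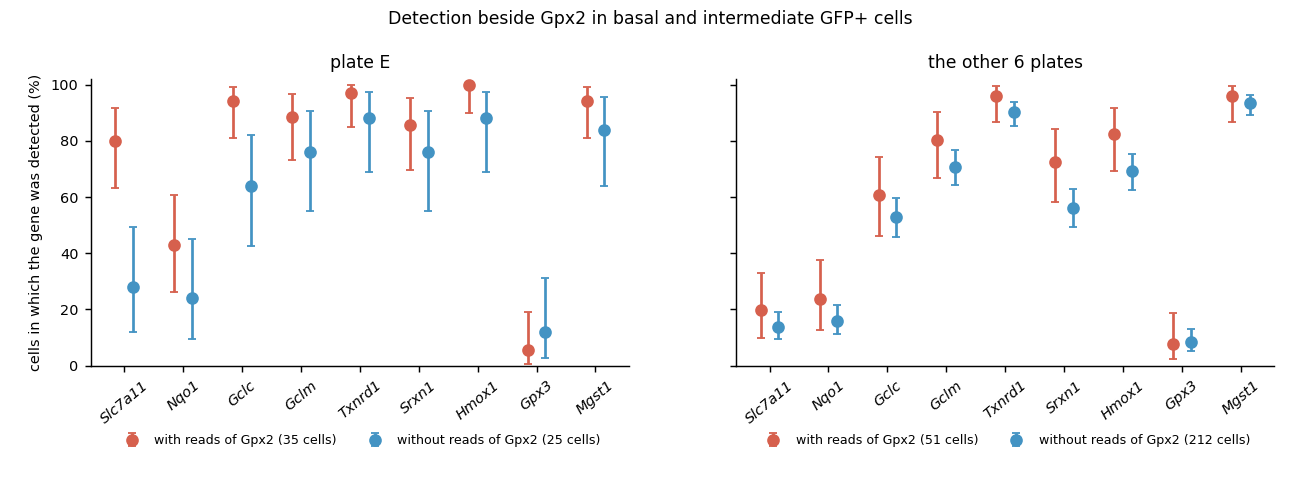
Share of basal and intermediate GFP+ cells in which each of the other 9 genes was detected (vertical axis, percent; horizontal axis, gene), in cells with and without reads of Gpx2, on plate E and on the other 6 plates; bars are 95% exact binomial intervals. On plate E Slc7a11 was detected in 80% of cells with and 28% without Gpx2, and on the other plates in 19.6% and 13.7%.

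The summed levels rested on few cells for the sparser genes. Of the 323 cells, few held much of the sum: 50% of the summed CPM was held by 13 cells for Gpx2, 7 for Slc7a11, 8 for Nqo1 and 2 for Gpx3, but by 55 for Gclm and 62 for Txnrd1. For Slc7a11, a single plate E cell with 5439 CPM held 29.7% of the sum, and without that cell plate E had 96.0 in place of 240.4 CPM, which was still the highest intermediate value. The highest cell of Gpx2 had 1529 CPM and was a basal cell of plate 4. The highest cell of Gpx3, on plate G, had 10505 CPM and 31.6% of the sum.

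Levels of gene pairs were also compared over the 323 cells, first as Spearman correlations of log2(CPM + 1) centred within plate and gate and then with ranks taken within plate and gate. The 45 pairs had a median rho of 0.09 centred and 0.10 ranked within, so most pairs were close to unrelated in these sparse counts, and cells of a plate share a library preparation and a depth. The exception was Txnrd1 with Hmox1, at 0.47 centred and 0.51 ranked within, and between 0.40 and 0.57 on each of the 6 plates with enough cells. A looser group around them was Gclm with Txnrd1 (0.24 and 0.30), Gclm with Hmox1 (0.25 and 0.26), Srxn1 with Hmox1 (0.23 and 0.21) and Slc7a11 with Hmox1 (0.17 and 0.28). Gpx2 with Slc7a11 was at 0.29 centred but at 0.14 ranked within, with plates from -0.10 to 0.65. Nqo1 with Gpx3 moved from 0.21 to 0.06 between the same scales, with both genes read in 7 cells. The median over pairs was 0.24 on plate 4 and 0.22 on plate E, and between 0.02 and 0.09 on plates 1, 3, G and L.

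**Figure D5:**
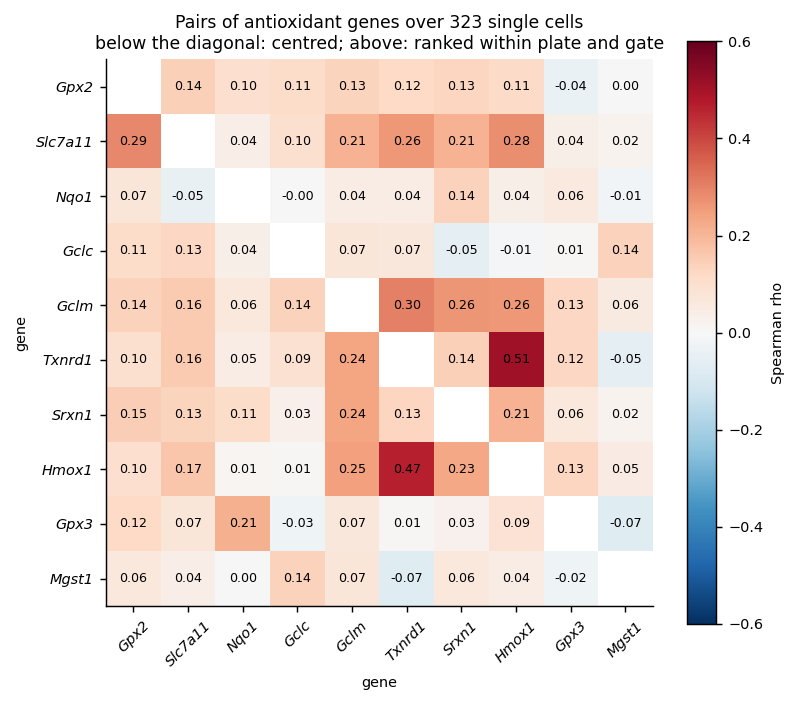
Spearman's rho of each pair of the 10 genes (both axes) over 323 basal and intermediate GFP+ cells, below the diagonal with levels centred within plate and gate and above it with ranks within plate and gate. Txnrd1 and Hmox1 stand out at 0.47 and 0.51, and Gpx2 with Slc7a11 is at 0.29 and 0.14.

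Measures outside the 10 genes were set beside them in the same cells, with ranks within plate and gate. Hmox1 and Txnrd1 went with the summed level of NRF2 regulators (0.46 and 0.49) and with the other NRF2 targets (0.39 and 0.29). Both also went with the immediate early and heat shock genes (0.22 and 0.24) and ran opposite to genes of the interfollicular epidermis (-0.35 and -0.36). Slc7a11 went with the other NRF2 targets at 0.25, with the NRF2 regulators at 0.22 and with the ATF4 response at 0.18. The value with the ATF4 response was not particular to Slc7a11: it was 0.18 for Txnrd1 and 0.17 for both Gclm and Hmox1. For the remaining genes it ran from -0.0048 (Gpx2) to 0.11 (Srxn1). Mgst1 went with the sebaceous genes (0.44), the other antioxidant enzymes (0.37), the other NRF2 targets (0.33) and Scd1 (0.32). These are correlations across cells that share plates and depth, given as descriptions.

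Finally, the genes most like Gpx2 and Slc7a11 were named by Spearman correlation. Over the 30 groups of gate, GFP and plate and 9130 genes with a mean of at least 10 CPM, Gpx2 was most like Prdm1 (0.80), Them5 (0.78), Cotl1 (0.76), Spon2 (0.76) and Tmem45a (0.75), with Slc7a11 further down at 0.58. Slc7a11 was most like Bdnf (0.83), Meg3 (0.77), Lrrc8c (0.74), Prdm1 (0.73) and Relt (0.73). Over the 323 cells and 10834 genes, centred within plate and gate, Gpx2 was most like Them5 (0.36), Pcdh1 (0.34), Metrnl (0.34), Sema3b (0.32) and Dsg3 (0.31), and Slc7a11 most like Tmod2 (0.34), Hs6st2 (0.33), B4galt2 (0.33), Entpd2 (0.32) and Lck (0.32). Each of both genes was then at rank 15 and 12 of the other's list, but with ranks within plate and gate Slc7a11 was at rank 1162 of that of Gpx2. Them5 and Metrnl were among the first 5 of Gpx2 on either scale.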

How the data were processed

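The deposited tables hold read counts per gene for 840 single cells, which the authors made with STAR 2.7.7a on GRCm38 and HTSeq 0.13.5 after Trim Galore 0.6.5, without normalization. Batches 1 and 2 were sequenced single-end and batch 3 paired-end. Spike-ins (2.61%, 2.16% and 0.0938% of the reads of all entries in batches 1, 2 and 3) and HTSeq summary entries (67.4%, 64.9% and 52.3%) stayed out of all sums. Groups were taken from the deposited labels, although the study's own list of sorted cells per plate gives the intermediate and luminal GFP+ cells of plates 1 to 4 the other way round, and the keratins of both gates followed the labels on plates 1, 3 and 4, where both were kept. A repeat run of plate 5 was left out, which left 744 cells, and the thresholds of the authors' methods were applied to them: more than 100000 reads, more than 1400 genes, less than 10% of reads from mitochondria, no fewer than 2 reads of Epcam and no more than 1 of Dcpp1, a salivary gland gene. Of 39154 gene identifiers, 37893 matched a symbol.

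Reads of the kept cells of a group were summed within a plate where at least 3 cells were kept, and tested with the quasi-likelihood test of edgeR 4.0.16 (TMM, default filter on low counts, plate as a block, Benjamini-Hochberg over all tested genes, threshold 0.05). Standard errors were derived from the fold change and the F statistic. With the plate as a block, the p-values set the difference between groups within plates against how much that difference varied from plate to plate. The identifying numbers of the plates in the annotation differ. DESeq2 1.42.0, its size factors in edgeR, no filter, other units, blocks, cell filters and thinning, and leaving out each plate were alternatives. Detection used 100000 reads drawn per cell with a fixed seed, and CPM on the log scale had a pseudocount of 1. The members, the lists and the 5 genes most like Gpx2 and Slc7a11 followed rules chosen with earlier results of these data known. Up to 4 genes of each list with the largest fold changes were named. Scripts were tested on simulated data. Python 3.11.15, R 4.3.3 and matplotlib 3.10.9 were used.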

Additional observations from a re-analysis of the deposited data

Results flagged for a closer look

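Levels of the 10 genes were searched for plates that stood far from the others of their group, in 40 groups of 5 to 7 plates. A plate was noted where its gap to the nearest other plate took up more of the group's range than Dixon's 95% critical value allows, which chance does for about 1 group in 20 of normally distributed values, and 13 plates were noted. All 13 were high values and many levels were skewed or at 0, for which the chance rate was not tested. In basal GFP+ cells these were Gpx3 on plate 1 (184.1 CPM, next 7.47) and Mgst1 on plate L (1218 CPM, next 445). In intermediate GFP+ cells they were Slc7a11 on plate E (240.4 CPM, next 57.2), Gclc on plate 2 (369.6 CPM, next 167.6), Srxn1 on plate 2 (1355 CPM, next 482) and Gpx3 on plate 1 (2616 CPM, next 173.7). Plates 1 and 2 had only 4 and 3 kept intermediate GFP+ cells.

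In luminal GFP+ cells the noted plates were 3 for Gpx2 (3.28 CPM, next 0.491), L for Gclc (160.9 CPM, next 38.2) and G for Gpx3 (1794 CPM, next 135.5). In luminal GFP- cells they were L for Gpx2 (69.003 CPM, next 0), 3 for Nqo1 (114.5 CPM, next 39.6), G for Gclm (92.9 CPM, next 44.4) and G for Gpx3 (5141 CPM, next 418). Gpx3 was noted in each of the 4 groups that were examined.

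The Cre lines were set beside each other for 40 differences between groups of cells. For Srxn1, the difference of luminal minus basal GFP+ cells was negative on all 3 SMACreERT2 plates (mean -1.40 in log2(CPM + 1)) and positive on both K5CreERT2 plates (mean 0.16). The difference of intermediate minus basal GFP+ cells was -2.45 and 0.95 in the same order, but the first rested on plate 1, whose 4 intermediate cells had 0 CPM beside 135.04 in its basal cells. On plates 3 and 4 the levels were 421 against 431 and 237.6 against 279.1 CPM, and the mean without plate 1 was -0.13. The difference between the Cre lines was not tested, and the lines cannot be told apart from the sequencing batches and from the sebaceous genes on plates G and L.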

How the results depend on the processing

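No paired analysis was possible because the replicate numbers count cells in accession order, other than the pairing by plate, which the reported fit already held as a block. Values are percentages of tested genes called with an adjusted p below 0.05. The 10 genes were chosen on levels by gate and GFP, so nothing is read from how many of them were called. For luminal against basal GFP+ cells the 0.562% became 10.5% with DESeq2, 3.08% with no filter on low counts, 1.13% with a Cre line at a chase time as the unit, 1.07% without the plate block, 2.82% after thinning, 1.42% without the Epcam and Dcpp1 filters, 0% on plates G and L only (chosen after seeing the data) and 0.0407% to 0.361% without single plates. Antioxidant genes called were 4 with DESeq2 and 4 with no filter, and 1 (Hmox1) under each of the unit, no block, thinned and no cell filter settings. For intermediate against basal cells the 0% became 0.652% with DESeq2, 0.0752% with no filter and 0.0168% on plates G and L only, with 1 antioxidant gene called under each of the first pair. For luminal against intermediate cells it became 5.71% with DESeq2 (2 antioxidant genes), 1.01% with no filter (3 antioxidant genes), 0.217% without the block, 0.631% after thinning, 0.165% without cell filters, 0.0941% on plates G and L only and 0% to 0.0628% without single plates. For luminal GFP+ against GFP- cells it became 2.38%, 0.281% and 0.0087% with DESeq2, no filter and no cell filters.

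Some log2 fold changes turned sign. For luminal against basal cells, on plates G and L only, Slc7a11 was at 0.78, Nqo1 at 3.65 and Srxn1 at 0.11, and Nqo1 was at 0.33 with the other unit, 0.0523 after thinning and 1.04 without cell filters. For intermediate against basal cells Gpx2 was at 0.22 and Slc7a11 at 0.0067 without cell filters, and Nqo1 at 0.16, 0.18 and 0.33 with the other unit, without the block and after thinning. For luminal against intermediate cells Nqo1 was at 1.00, Gclm at -0.13 and Mgst1 at 0.20 without cell filters, and Gclm at -0.14 and Gpx3 at -0.50 without the block. For luminal GFP+ against GFP- cells Hmox1 was at -1.21, -0.83 and -0.55 with the other unit, without the block and without cell filters, and Mgst1 at -0.15 without cell filters. Without single plates the values spanned 0 for luminal against basal cells in Nqo1 (-2.18 to 1.49) and Mgst1 (-1.06 to 0.0050), for intermediate against basal cells in Gpx2 (-1.63 to 0.16), Nqo1 (-1.59 to 1.55), Gclc (-0.0895 to 0.33), Gclm (-0.86 to 0.15) and Srxn1 (-0.87 to 0.39), for luminal against intermediate cells in Gclm (-0.62 to 0.50), Srxn1 (-1.34 to 0.18) and Mgst1 (-0.36 to 0.56), and for luminal GFP+ against GFP- cells in Gclc (-0.80 to 0.20), Txnrd1 (-0.0031 to 0.46), Hmox1 (-0.22 to 0.98) and Mgst1 (-0.19 to 0.61). The sign of Gpx2, Gclc, Gclm, Txnrd1, Hmox1 and Gpx3 between luminal and basal cells held under every alternative in which each was tested. The causes were not tested.

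The share of basal and intermediate GFP+ cells with at least 5 genes, 70.6%, was 64.4% at 50000 reads, 80.2% with all reads, 62.8% when detection took 2 reads, 64.2% without the Epcam and Dcpp1 filters, and 65.8% to 75.8% without single plates. The correlation of Txnrd1 with Hmox1 was 0.54 without centring. Without the cell filters the mean luminal GFP+ levels were 3.65 CPM for Gpx2 and 150.1 CPM for Srxn1. Many groups had 3 to 6 kept cells on a plate, which limits the precision of sparse genes.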

Other observations

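Cells left out of the comparisons also held reads of these genes. Of the cells removed for more than 1 read of the salivary gene Dcpp1, 8.29% had reads of Gpx2, 5.52% of Slc7a11 and 45.3% of Hmox1. Of 23 cells removed for fewer than 2 reads of Epcam, none had reads of Gpx2 and 4.35% had reads of Slc7a11. In 92 usable luminal cells of the repeat run of plate 5, Gpx2 was read in 1.09%, Slc7a11 in 2.17% and Mgst1 in 96.7%.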
